A study of Mus musculus with 24 samples.

Results

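The comparison described here is that of lean mice 6 h after removal of 70% of the liver with lean mice 6 h after sham surgery. It uses 8 of the 24 arrays of the series, 4 labelled lean 70% hepatectomy and 4 labelled lean sham, which were chosen by their titles alone. Both groups were male C57BL/6J mice, given an age of 12 weeks in the labels. They were the lean controls of diet-induced obese mice and were kept on the supplier's diet formulation, which is not named in the sources used here. The sham operation was an incision with handling of the liver, so both groups had been anaesthetised and opened. The tissue was frozen liver, and its total RNA was hybridised to Illumina BeadChip arrays. The other 16 arrays hold lean 80% hepatectomy and obese mice after 70% hepatectomy, 80% hepatectomy or sham surgery. All 24 arrays entered the fit, so that the groups share one estimate of the spread.

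Partial hepatectomy is the classical model of liver regeneration. Within hours of the loss of tissue, the remaining hepatocytes, which are mostly quiescent in the adult, pass through a priming phase in which growth factor, cytokine and stress signals switch on early genes, while the blood supply, nutrients and bile acids that reach each remaining cell rise. DNA synthesis follows later in the mouse, so the 6 h point falls before it.

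A gene was called changed when its adjusted p, from the moderated test of limma with Benjamini-Hochberg adjustment over 10763 genes, was under 0.05. Values are normalised log2 intensities, those of single arrays follow replicate order, and changes are lean 70% minus lean sham on the log2 scale with their standard error (±) at n = 4 arrays a group. Where 1 group was not detected on any array, only a lower bound of the fold is given. The 4 lean sham arrays lay on slide 1 and the 4 lean 70% arrays on slide 2, and only obese sham, with 2 arrays on each of those slides, links them. No value within a slide can be had, so counts from a fit with slide terms, estimated through obese sham, are set beside the main ones as "with slide terms". A dagger (†) marks a named gene that lost its call there. Unless the sentence says otherwise, a number in parentheses behind a gene is its log2 change. Every gene so given passed the main test, except where the text says that it did not pass. No label says that each array is another mouse, so the p-values rest on array-to-array spread, which may be technical.

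Hepatectomy separated the arrays. In a principal component analysis of the 8 arrays the leading component carried 75.7% of the variance, with lean 70% arrays at 27.6, 42.5, 39.7 and 38.6 and lean sham arrays between -38.9 and -35.0. Lean 70% array 1 lay nearest to sham. Arrays of a group correlated at 0.982 or more across genes, against 0.931 to 0.956 between the groups. The lean 70% arrays detected 15316 to 15998 probes and the lean sham arrays 15587 to 16024. The hepatocyte markers Alb, Ttr, Apoa1, Apob, Cps1 and Serpinc1 were detected on all 8 arrays. Detection does not show a steady level. Alb and Serpinc1 were called higher and Ttr, Apoa1 and Cps1 lower, all without a call with slide terms. The change of Serpinc1 was 0.77 in the main fit and 0.09 with slide terms (adjusted p = 0.782). Its call was also lost with the mean of its detected probes.

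Of the 10763 genes, 5125 were called (47.6%), 2308 higher (21.4%) and 2817 lower (26.2%) after hepatectomy. Many changes were small. Of the called genes 2359, or 46.0%, changed by less than 1.5-fold, and the median size of a called change was 0.62 on the log2 scale. The large changes were mostly rises. At least 2-fold changes numbered 616 up and 537 down (10.7% of genes together), 4-fold changes 165 and 72, 8-fold changes 56 and 17, and 16-fold changes 24 and 6. The groups did not overlap in 4380 genes (40.7%). Detection itself switched in some genes: 115 that were called higher were detected on all 4 lean 70% arrays and no lean sham array, and 80 that were called lower showed the reverse. With slide terms 2495 genes were called (23.2%), 2409 of them also called in the main fit in the same direction. They kept 1065 of the 1153 genes with at least a 2-fold change. That count of 1153 fell to 671 with the authors' deposited normalised values and to 669 without background correction. With slide terms the median standard error was 0.221 in place of 0.134.

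**Figure D1:**
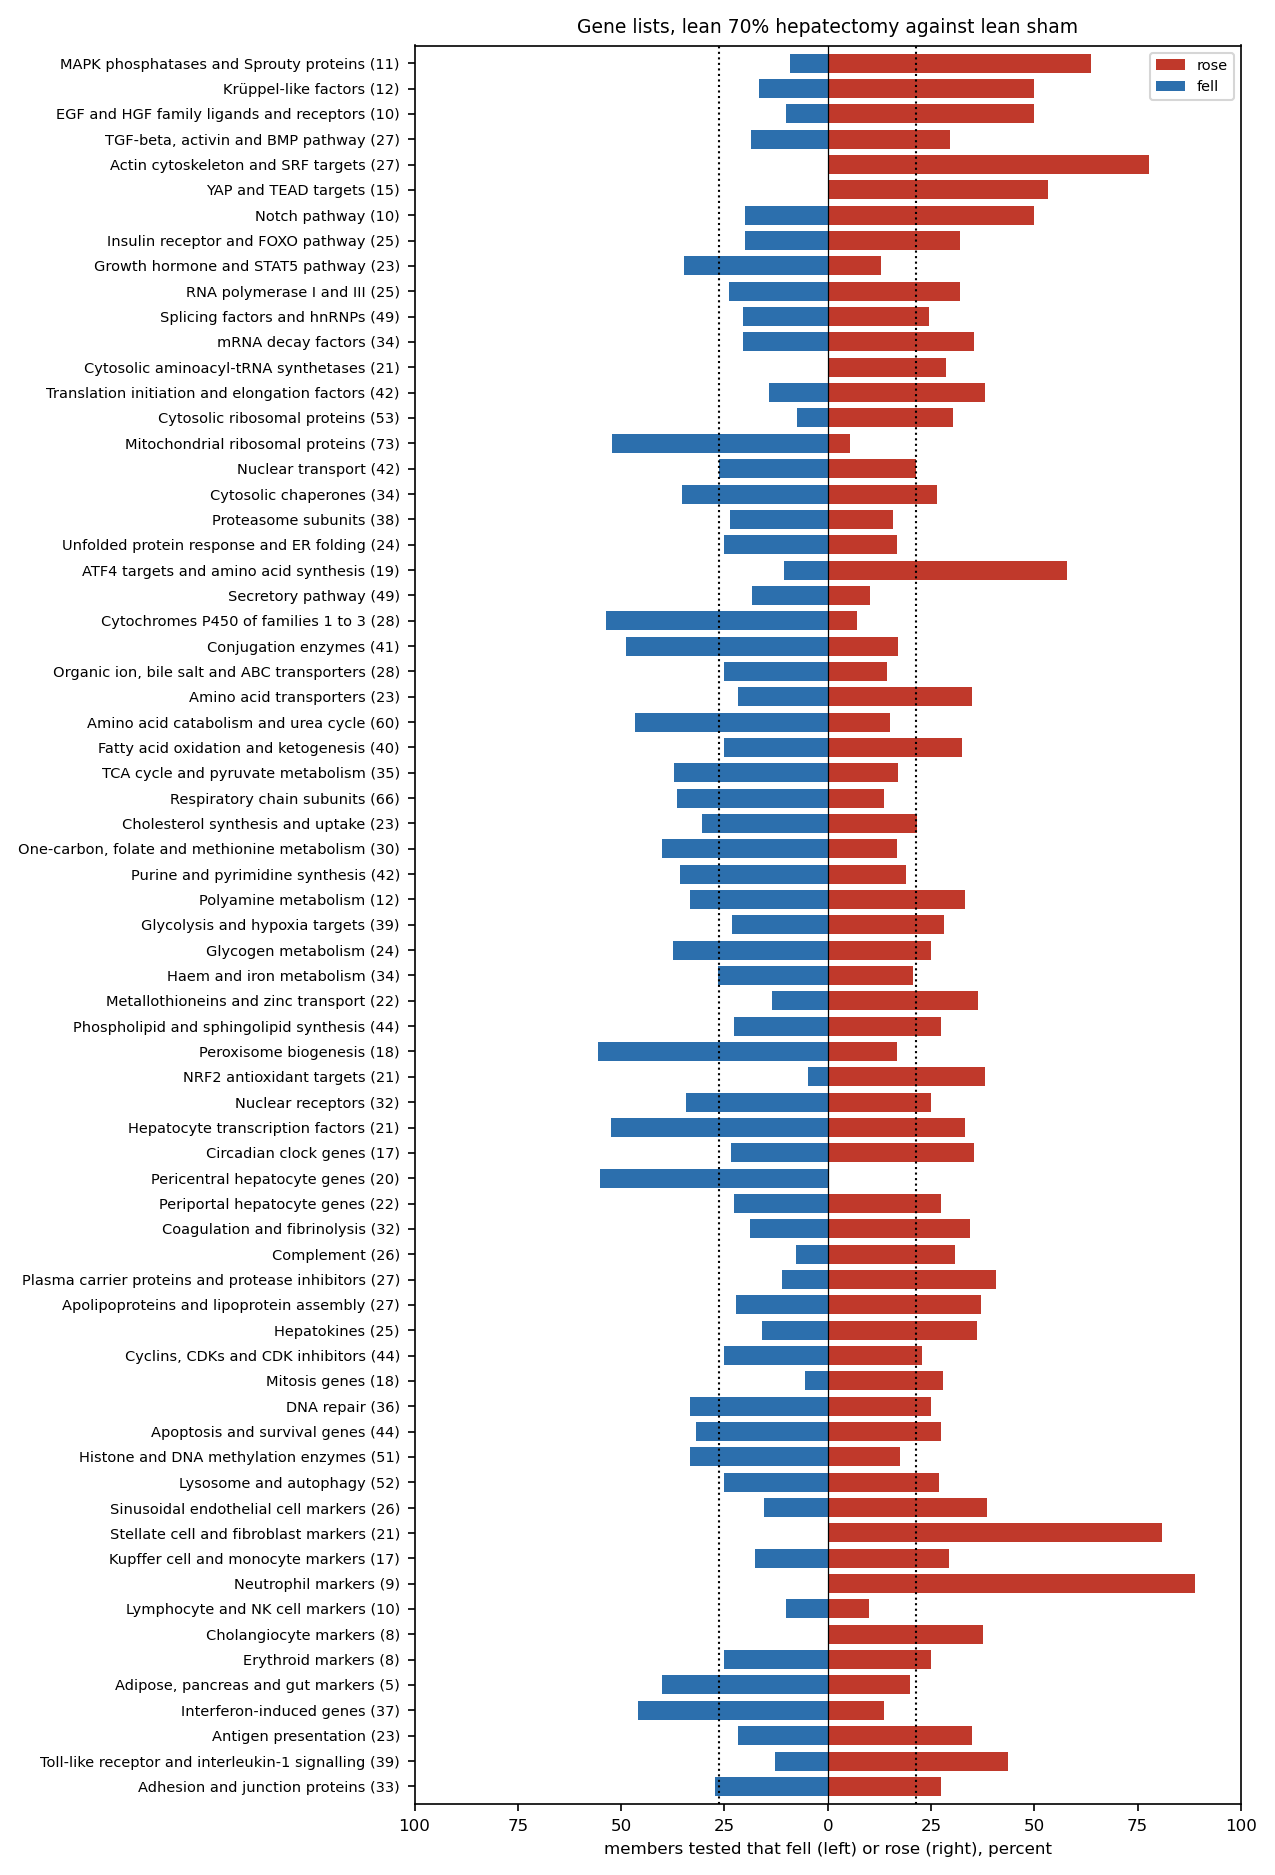
Members of 69 gene lists that rose (right, red) or fell (left, blue) after 70% hepatectomy in lean mice, as percent of the members tested, with the number tested behind each name. The dotted lines mark 21.4% and 26.2%, the shares of all 10763 genes that rose and fell. Actin and SRF targets, stellate cell markers, neutrophil markers and MAPK phosphatases reach farthest to the right, and mitochondrial ribosomal proteins, peroxisome biogenesis and pericentral genes are among those farthest to the left.

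Most feedback inhibitors of MAP kinase signalling rose. Of 11 measured MAPK phosphatases and Sprouty proteins, 7 rose and 1 fell (median 1.14; 7 and 0 with slide terms), a share of 63.6% risen against 21.4% of all genes. Dusp8, a phosphatase that inactivates stress-activated MAP kinases, read 7.14, 7.56, 7.59 and 8.55 on the lean 70% arrays, against 4.40, 4.58, 4.54 and 4.45 on the lean sham arrays. All lean 70% arrays were far above sham, and Dusp8 was detected on no sham array, a rise of at least 7.19-fold (adjusted p = 1.8e-11). Dusp5, an inhibitor of nuclear ERK (2.92, detected on 1 sham array), and the ERK phosphatase Dusp4 (2.64) followed.

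Krüppel-like factors, zinc finger regulators of growth and metabolism, moved in both directions. Of 12 measured, 6 rose and 2 fell (median 0.38, or 0.26 with bounded genes at their bound; 4 and 2 with slide terms). Klf6, an early gene of injured liver, read 9.59, 9.57, 10.07 and 9.84 in lean 70% livers, against 7.09, 6.45, 6.54 and 6.64 in lean sham livers. Every lean 70% array was far above every sham array (3.08 ± 0.21, adjusted p = 3.5e-11). The shear-responsive endothelial factor Klf2 (1.29) rose too. Klf13 went the other way, at 8.0, 7.58, 7.50 and 7.08 in lean 70% livers, against 8.82, 8.55, 8.82 and 8.76 in lean sham livers (-1.19 ± 0.17, adjusted p = 2.2e-06), again without overlap.

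Ligands of the epidermal growth factor (EGF) receptor, which drive hepatocytes into the cycle, were among the genes that rose. Of 10 measured members of the EGF and HGF families, 5 rose and 1 fell (median 0.41; 5 and 1 with slide terms). Betacellulin (Btc) read 7.18, 7.25, 6.90 and 6.15 in lean 70% livers, against 5.23, 4.86, 4.85 and 5.24 in lean sham livers, 3 of which detected it (1.82 ± 0.25, adjusted p = 1.8e-06). The lowest lean 70% array still exceeded the highest sham array. Hbegf, another EGF receptor ligand, rose (1.76, detected on 1 sham array), and so did Plat (at least 2.43-fold, adjusted p = 7.4e-07), the tissue plasminogen activator. Lrig1, a membrane protein that promotes the degradation of EGF receptors, fell (-0.91).

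In the TGF-beta, activin and BMP pathway 8 of 27 rose and 5 fell (median 0.09; 6 and 4 with slide terms), close to the shares of all genes, and activin and its antagonist moved in opposite directions. Follistatin (Fst), which binds and neutralises activins, read 7.63, 7.18, 7.22 and 8.24 in lean 70% livers, against 4.79, 4.79, 5.67 and 4.69 in lean sham livers, where 1 array detected it (2.59 ± 0.26, adjusted p = 1.7e-08). Inhba, which encodes the activin A subunit, read 5.78, 4.88, 4.84 and 5.18 in lean 70% livers, of which 2 detected it, against 6.79, 7.08, 7.82 and 7.75 in lean sham livers (-2.19 ± 0.27, adjusted p = 3.8e-07). Neither gene's groups overlapped. The activin C subunit Inhbc (-0.97) and the activin receptor Acvr2b (-0.89) fell, whereas the TGF-beta receptor Tgfbr2 rose (1.06).

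Genes of the actin cytoskeleton and targets of serum response factor (SRF), taken as a single list, mostly rose. SRF switches on actin and contractile genes when monomeric actin is used up. Of 27 measured genes of the actin cytoskeleton and SRF targets, 21 rose and 0 fell (median 0.82, 77.8% risen; 14 and 0 with slide terms). The smooth muscle actin gene Acta2, also the standard marker of activated stellate cells, read 10.42, 9.90, 10.62 and 8.95 in lean 70% livers, against 6.64, 6.22, 5.75 and 6.49 in lean sham livers (3.70 ± 0.34, adjusted p = 3.8e-09). With the mean of its detected probes the rise of Acta2 was 2.17 ± 0.25, and without background correction 3.06 ± 0.31. The tropomyosin gene Tpm4 (2.42), Srf itself (1.84) and vinculin (Vcl, 1.16), which couples actin to adhesions, rose. The myosin light chain Myl9 rose by at least 2.44-fold (adjusted p = 3.0e-07). The list's mean level was 8.46 to 8.93 in lean 70% livers and 7.77 to 7.84 in lean sham livers. Stellate cell and fibroblast markers, given with the other cell types, rose beside it in 17 of 21. In whole liver a change in the number of cells of a type and a change in the RNA of each cell cannot be told apart.

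SRF binds the CArG box, and the bases before the start of Srf and Vcl are shown because both genes rose and both stretches hold one. The sequences are 250 bases upstream of the RefSeq start (GRCm38.p6), Srf at chr17:46556163-46556412 on the minus strand and Vcl at chr14:20929148-20929397 on the plus strand, with CArG boxes in capitals.
Srf: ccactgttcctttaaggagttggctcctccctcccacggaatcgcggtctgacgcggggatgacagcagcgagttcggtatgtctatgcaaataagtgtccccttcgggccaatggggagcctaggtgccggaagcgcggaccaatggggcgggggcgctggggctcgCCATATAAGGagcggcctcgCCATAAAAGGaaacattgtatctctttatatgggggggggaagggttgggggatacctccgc
Vcl: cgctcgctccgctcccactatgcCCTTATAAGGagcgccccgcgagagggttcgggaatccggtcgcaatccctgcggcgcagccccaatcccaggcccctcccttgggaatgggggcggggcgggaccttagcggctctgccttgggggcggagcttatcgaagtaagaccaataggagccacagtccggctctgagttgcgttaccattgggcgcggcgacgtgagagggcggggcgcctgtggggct
A CArG box was held by 1.47% of the 32851 RefSeq promoters in the same window. Of the 30 list members with a promoter it was found in 8 (26.7%). Here and for the elements below, the share of all promoters counts windows. The share of a list counts genes, a gene being counted if any of its windows held the element. Genes with several windows thus had more chances, and the shares are not strictly alike. Of those 8, 5 were measured, of which 4 rose and 0 fell, and of the 20 measured members without the box 16 rose. A match is only a stretch of letters, and its use in these livers was not tested.

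Targets of the Hippo pathway's effectors YAP and TEAD, which respond to tissue tension and size, followed the same direction. Of 15 measured, 8 rose and 0 fell (median 0.37, or 0.20 with bounded genes at their bound; 6 and 0 with slide terms). The transcription factor Tead1 read 8.67, 8.92, 8.69 and 9.24 in lean 70% livers, against 5.56, 5.46, 6.02 and 6.16 in lean sham livers (3.08 ± 0.16, adjusted p = 4.2e-13). The secreted matricellular factors Ccn2 (3.05) and Ccn1 (2.86, detected on 1 sham array) rose. No group overlapped for Tead1, Ccn2 or Ccn1.

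The Notch pathway gave 5 rises and 2 falls in 10 measured genes (median 0.25), and 1 and 1 with slide terms. With those terms the median turned its sign, to -0.099. Maml1, a co-activator of Notch, read 5.90, 4.96, 5.66 and 4.85 in lean 70% livers, against 8.03, 7.88, 7.84 and 7.70 in lean sham livers (-2.52 ± 0.18, adjusted p = 5.2e-11). The lean 70% arrays lay near the detection floor and 3 of them detected it. The progenitor and bile duct factor Sox9 rose (1.36), at 8.85 to 10.51 in lean 70% livers, against 8.09 to 8.76 in lean sham livers.

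Genes of insulin and growth hormone signalling changed singly. In the insulin receptor and FOXO pathway 8 of 25 rose and 5 fell (median 0.09; 2 and 1 with slide terms). The insulin receptor substrate Irs2, which FOXO factors induce in fasting, rose (2.43). Of 23 measured genes of growth hormone and STAT5 signalling, 3 rose and 8 fell (median -0.34; 1 and 5 with slide terms). Igfals, which encodes the subunit that keeps insulin-like growth factors in the blood, read 10.96, 10.43, 10.49 and 10.12 in lean 70% livers, against 12.02, 11.96, 11.64 and 12.06 in lean sham livers (-1.42 ± 0.18, adjusted p = 5.2e-07). The male-biased steroid enzyme Hsd3b5† fell further, at 9.19 to 9.48 in lean 70% livers and 11.85 to 12.35 in lean sham livers (-2.76 ± 0.67, adjusted p = 0.0014). With slide terms Hsd3b5 gave -0.94 (adjusted p = 0.57), so for it the effect of slide and that of surgery cannot be told apart.

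**Figure D2:**
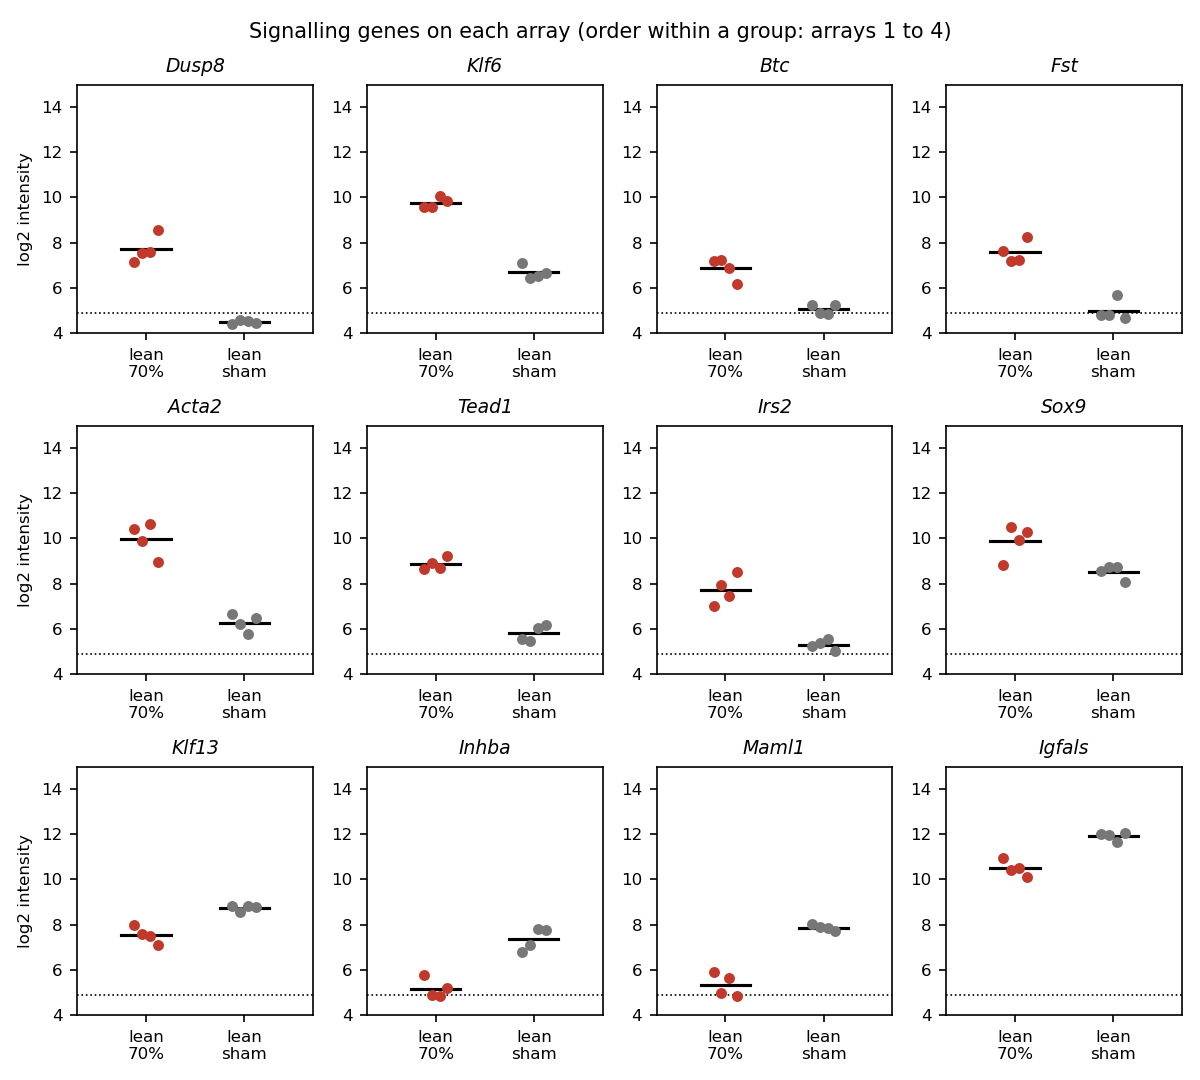
Normalised log2 intensity on each array for 12 genes of signalling, lean 70% livers to the left (red) and lean sham livers to the right (grey), with a bar at each group mean and a dotted line at the mean detection floor of the 8 arrays. Dusp8, Fst, Btc, Acta2 and Tead1 are higher in every lean 70% array, and Inhba, Maml1, Igfals and Klf13 are lower in every one.

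The machinery of gene expression changed piecemeal. Among 34 measured mRNA decay factors 12 rose and 7 fell (median 0.10; 4 and 3 with slide terms). The rises were led by the BTG family of antiproliferative proteins, which recruit the CCR4-NOT deadenylase. Btg3 read 7.12, 7.71, 7.83 and 7.40 in lean 70% livers, against 4.35, 4.36, 4.31 and 4.34 in lean sham livers, none of which detected it (at least 6.30-fold, adjusted p = 1.1e-12). Btg2 rose by at least 2.69-fold (adjusted p = 6.1e-08) from no detection in sham. Falls included the exosome subunit Exosc5 (-0.94), the nonsense-mediated decay helicase Upf1 (-0.89) and Cnot3 (-0.86), a CCR4-NOT subunit.

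RNA polymerases I and III, which make ribosomal and transfer RNA, had 8 rises and 6 falls in 25 measured subunits and factors (median -0.02; 2 and 3 with slide terms). Some factors of polymerase I rose, among them Taf1d (0.88†), Taf1a (0.71) and the subunit Polr1e (0.67). Some polymerase III components fell, with Polr3k at 7.28, 6.74, 6.85 and 6.44 in lean 70% livers, against 8.28, 8.05, 7.97 and 7.95 in lean sham livers (-1.23 ± 0.14, adjusted p = 8.1e-08). The 5S rRNA gene factor Gtf3a (-1.07) and the subunit Polr3b (-0.70†) fell as well. Whether the directions differ between the polymerases was not tested.

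Splicing factors and hnRNPs gave 12 rises and 10 falls in 49 measured (median -0.02; 4 and 3 with slide terms), close to the shares of all genes. Nuclear transport was similar, with 9 and 11 of 42 (2 and 4 with slide terms). Hnrnpdl (1.11), an RNA-binding regulator of splicing, and the splicing factor Srsf5 (1.06) rose. The U2 spliceosome component Sf3b3 fell (-1.0).

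Translation factors rose more often than they fell. Of 42 measured initiation and elongation factors 16 rose and 6 fell (median 0.03; 7 and 1 with slide terms). Eif1a, which helps to scan for the start codon, read 10.43, 10.71, 10.41 and 10.43 in lean 70% livers, against 9.35, 9.39, 9.28 and 9.16 in lean sham livers (1.20 ± 0.11, adjusted p = 3.1e-09). The translation repressor Eif4ebp1 rose too (1.08). Eif2b1, a subunit of the exchange factor for eIF2, fell (-0.79). Of 21 measured cytosolic aminoacyl-tRNA synthetases and their partners, 6 rose and 0 fell (median 0.18; 3 and 0 with slide terms), Eef1e1 (0.82) and Lars (0.65) the most.

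Ribosomal proteins of mitochondria fell more often than those of the cytosol. Whether they differ was not tested. Of 53 measured cytosolic ribosomal proteins 16 rose and 4 fell (median 0.09). Their changes lay between -0.46 and 1.09 on the log2 scale, and none passed with slide terms. Of 73 measured mitochondrial ribosomal proteins 4 rose and 38 fell (median -0.25, 52.1% fallen against 26.2% of all genes; 0 and 13 with slide terms). Mrpl49 read 8.29, 6.81, 7.58 and 7.34 in lean 70% livers, against 9.84, 9.89, 9.71 and 9.85 in lean sham livers (-2.32 ± 0.22, adjusted p = 1.0e-08). Sham arrays lay close together, while lean 70% arrays spread widely, all lower. Mrps16 (-1.33) and Mrpl35 (-1.17) fell. The respiratory chain, whose mitochondrially encoded parts these ribosomes make, had 9 rises and 24 falls in 66 measured nuclear-encoded subunits (median -0.14; 0 and 2 with slide terms). Ndufs7 (-0.83), a complex I subunit, fell the most.

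Chaperones and proteasome subunits moved in both directions. Of 34 measured cytosolic chaperones 9 rose and 12 fell (median -0.11; 4 and 5 with slide terms). Hsph1, a nucleotide exchange factor of heat shock protein 70, read 8.43, 7.31, 7.78 and 8.33 in lean 70% livers, against 9.66, 9.36, 9.53 and 9.46 in lean sham livers (-1.54 ± 0.22, adjusted p = 3.2e-06). The Hsp90 co-chaperone Stip1 fell (-1.41), and the small heat shock protein Hspb8 rose (0.93). Proteasome subunits gave 6 rises and 9 falls in 38 (1 and 5 with slide terms), with Psmd9 (-1.11) lowest. Lysosome and autophagy genes gave 14 and 13 of 52 (5 and 7 with slide terms), with the protease gene Ctsl (1.29) highest and the autophagy inhibitor Rubcn (-1.19) lowest.

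In the unfolded protein response 4 of 24 rose and 6 fell (median -0.10; 3 and 3 with slide terms). The median turned its sign with slide terms, to 0.158. The kinase Ern1 (IRE1), the sensor that splices Xbp1 mRNA, read 8.29, 7.44, 7.67 and 7.37 in lean 70% livers, against 9.07, 8.82, 9.01 and 9.39 in lean sham livers (-1.38 ± 0.17, adjusted p = 3.6e-07). Xbp1 itself rose (0.81), as did Ppp1r15a (0.97), which restores translation after stress. The degradation factor Herpud1 fell (-0.82). In the secretory pathway 5 of 49 rose and 9 fell (2 and 4 with slide terms), the coat protein Sec24d most (1.42).

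Targets of ATF4, the factor that amino acid shortage and stress activate, were raised. Of 19 measured, 11 rose and 2 fell (median 0.91, 57.9% risen; 9 and 1 with slide terms). Atf3, a stress-induced repressor, read 7.12, 7.13, 7.28 and 8.06 in lean 70% livers, against 4.33, 4.50, 4.60 and 4.78 in lean sham livers, which did not detect it (at least 5.79-fold, adjusted p = 6.3e-09). Asparagine synthetase (Asns, 2.20) and the serine synthesis enzyme Psat1 (2.09, detected on 3 sham arrays) rose, while the mitochondrial serine hydroxymethyltransferase Shmt2 fell (-0.71). The upstream bases of Asns (chr6:7693210-7693459, minus strand) and Atf3 (chr1:191183334-191183583, minus strand) are shown because both rose and both hold the C/EBP-ATF response element, TGATGNAA on either strand, in capitals.
Asns: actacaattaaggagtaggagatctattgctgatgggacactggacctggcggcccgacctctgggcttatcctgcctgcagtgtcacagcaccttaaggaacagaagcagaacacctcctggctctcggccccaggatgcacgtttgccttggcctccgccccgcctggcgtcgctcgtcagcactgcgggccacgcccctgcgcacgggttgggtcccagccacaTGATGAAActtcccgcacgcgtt
Atf3: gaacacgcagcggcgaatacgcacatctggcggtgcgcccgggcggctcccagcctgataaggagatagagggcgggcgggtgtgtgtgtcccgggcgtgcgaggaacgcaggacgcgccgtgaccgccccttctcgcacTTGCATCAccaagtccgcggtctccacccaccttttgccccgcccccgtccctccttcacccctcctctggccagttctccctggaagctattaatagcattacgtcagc
That element was found in 3.45% of all 32851 promoter windows and in 8 of the 24 list members with one (33.3%). Of the 6 measured with it 4 rose and 0 fell, and of the 13 measured without it 7 rose and 2 fell.

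**Figure D3:**
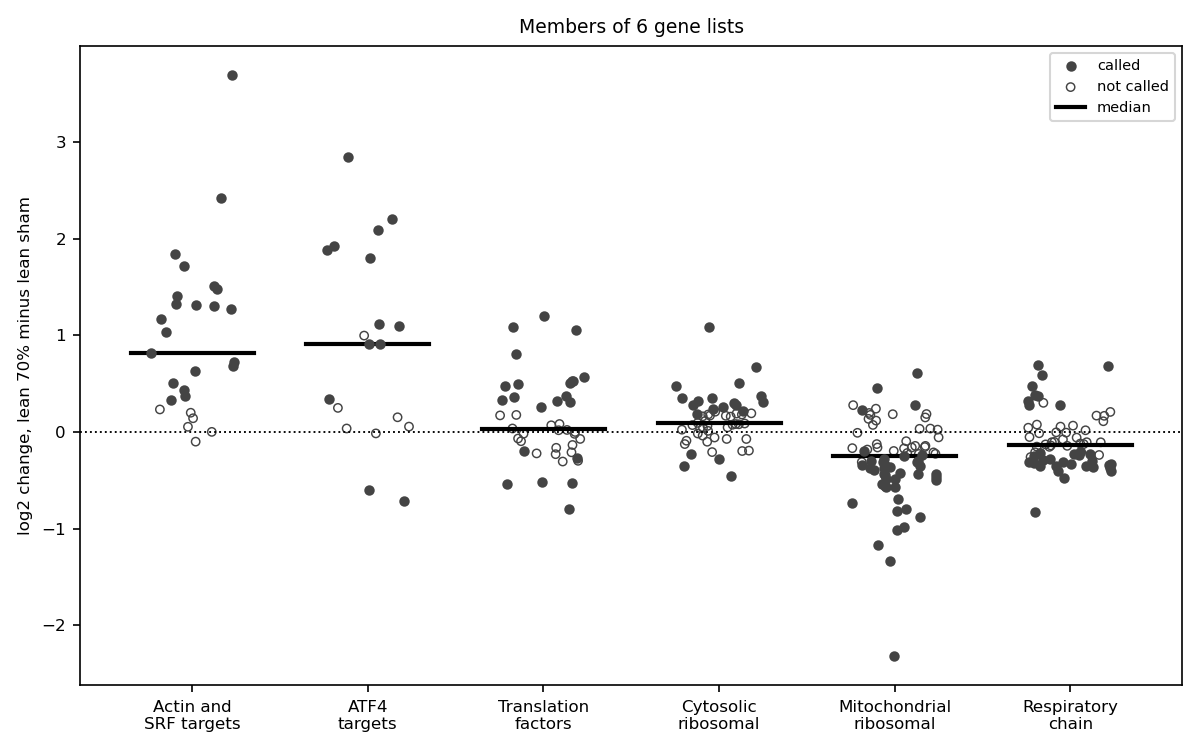
Log2 change (lean 70% minus lean sham) of every measured member of 6 lists, 1 point a gene, filled where the gene was called and open where it was not, with a black bar at the list median and a dotted line at 0. Mitochondrial ribosomal proteins lie mostly below 0, actin and SRF targets and ATF4 targets mostly above it, and cytosolic ribosomal proteins close to it.

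Detoxification enzymes, made mainly by hepatocytes around the central vein, fell more often than they rose. Of 28 measured cytochromes P450 of families 1 to 3, 2 rose and 15 fell (median -0.30; 1 and 8 with slide terms). Cyp2a5, which oxidises nicotine and coumarin, read 11.92, 10.57, 11.02 and 12.24 in lean 70% livers, against 13.19, 13.67, 13.25 and 13.04 in lean sham livers (-1.85 ± 0.25, adjusted p = 1.2e-06). The groups did not overlap, although lean 70% arrays ranged widely. Cyp1a2 (-1.06) fell, and Cyp2b10, a target of the receptor CAR, rose (1.56). Of 41 measured conjugation enzymes 7 rose and 20 fell (median -0.38; 3 and 12 with slide terms). The sulphotransferase Sult1c2 (-1.71) and the glutathione transferase Gstz1 (-1.0), which also degrades tyrosine products, fell. Gstt3 (1.88), Nnmt (1.42), a nicotinamide methyltransferase, and Gsta1 (3.05†) rose.

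Transporters of the hepatocyte membrane changed in parts. Of 28 measured organic ion, bile salt and ABC transporters 4 rose and 7 fell (median -0.08; 3 and 7 with slide terms). Slc10a1, the sodium-dependent importer that takes bile salts from the blood, read 5.56, 4.79, 4.67 and 4.72 in lean 70% livers, only the first of which detected it, against 6.85, 6.95, 6.87 and 6.84 in lean sham livers (-1.95 ± 0.17, adjusted p = 2.2e-09). The sterol exporter Abcg8 (-1.83) and the cation exporter Slc47a1 (-1.24) fell. The carnitine importer Slc22a5 rose (2.51), and so did Slc51b (3.19), a subunit of the basolateral bile salt exporter.

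Enzymes of amino acid breakdown fell more often than they rose, with a few strong rises. Of 60 measured genes of amino acid catabolism and the urea cycle 9 rose and 28 fell (median -0.27; 4 and 13 with slide terms). The kynurenine formamidase Afmid read 7.30, 6.83, 6.38 and 7.24 in lean 70% livers, against 8.56, 9.44, 9.16 and 8.77 in lean sham livers (-2.05 ± 0.20, adjusted p = 1.1e-08). The proline dehydrogenase Prodh (-1.65) and the branched-chain aminotransferase Bcat2 (-1.35, detected on 3 lean 70% arrays) fell. The rises were led by the lysine-degrading Aass at 11.48, 11.53, 11.78 and 11.82 in lean 70% livers, against 8.92, 8.74, 8.52 and 8.21 in lean sham livers (3.06 ± 0.21, adjusted p = 2.7e-11). The cysteine-forming Cth (2.33) and the tyrosine aminotransferase Tat (1.53) were the next. Of 23 measured amino acid transporters 8 rose and 5 fell (median 0.01; 6 and 1 with slide terms). Slc38a2, the adaptive importer of small neutral amino acids, read 11.04, 11.45, 11.40 and 12.15 in lean 70% livers, against 9.85, 9.43, 9.54 and 9.82 in lean sham livers (1.85 ± 0.17, adjusted p = 4.8e-09). Slc3a2 (1.80), the heavy chain of heteromeric exchangers, rose and the glutamine carrier Slc38a3 fell (-1.06).

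One-carbon metabolism, which supplies methyl groups and nucleotide precursors, was lowered in most of its changed members. Of 30 measured, 5 rose and 12 fell (median -0.19; 2 and 7 with slide terms). Shmt1, the cytosolic serine hydroxymethyltransferase, read 8.94, 8.01, 7.61 and 6.98 in lean 70% livers, against 11.17, 11.25, 11.26 and 11.43 in lean sham livers (-3.39 ± 0.27, adjusted p = 3.9e-10). Sham arrays lay close to each other, and the lean 70% arrays, all lower, spread far more. Bhmt2 (-1.18) and Mthfd1 (-0.85) fell, and the mitochondrial Mthfd2, an enzyme typical of dividing cells, rose (1.88).

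Genes of nucleotide synthesis, like all genes, fell more often than they rose. Of 42 measured purine and pyrimidine genes 8 rose and 15 fell (median -0.06; 2 and 9 with slide terms). The thymidine kinase Tk1, an enzyme of S phase, read 6.37, 6.58, 5.92 and 5.78 in lean 70% livers, against 8.91, 8.58, 8.60 and 7.99 in lean sham livers (-2.36 ± 0.23, adjusted p = 1.0e-08). The uridine phosphorylase Upp2 fell (-1.83) while its relative Upp1 rose (1.05), and the CTP synthase Ctps rose (1.15). In polyamine metabolism 4 of 12 rose and 4 fell (1 and 2 with slide terms), the spermine oxidase Smox highest (0.96) and Mtap lowest (-0.92).

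Genes of cholesterol synthesis and uptake changed about as often as all genes. Of 23 measured 5 rose and 7 fell, 21.7% and 30.4% against 21.4% and 26.2% of all genes (median 0.07; 1 and 4 with slide terms). Insig2, which holds the sterol sensor in the endoplasmic reticulum, read 13.37, 13.75, 13.84 and 13.35 in lean 70% livers, against 10.36, 11.04, 11.06 and 9.75 in lean sham livers (3.02 ± 0.24, adjusted p = 3.6e-10). Sc5d, a late desaturase of cholesterol synthesis, read 5.82, 5.11, 5.17 and 5.07 in lean 70% livers, against 7.92, 7.93, 8.05 and 8.51 in lean sham livers (-2.81 ± 0.18, adjusted p = 1.2e-11). Neither gene overlapped between groups. The decarboxylase Mvd (-1.92, 3 lean 70% arrays detecting it) and the sterol carrier Stard4 (-1.64) fell.

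Fuel oxidation showed gains and losses side by side. Of 40 measured genes of fatty acid oxidation and ketogenesis 13 rose and 10 fell (median -0.04; 5 and 3 with slide terms), and of 35 in the TCA cycle and pyruvate metabolism 6 rose and 13 fell (median -0.16; 2 and 9 with slide terms). Among the kinases that switch off pyruvate dehydrogenase, Pdk2 read 5.05, 4.63, 4.83 and 5.03 in lean 70% livers, of which 2 detected it, against 6.88, 6.80, 6.65 and 6.74 in lean sham livers (-1.88 ± 0.16, adjusted p = 1.2e-09). Pdk1 fell (-1.30), whereas Pdk4, the isoform of fasting, rose (5.67). The fumarase gene Fh1 rose (1.25) and the cytosolic isocitrate dehydrogenase Idh1 fell (-0.96). Ppargc1a, the co-activator of mitochondrial and fasting genes, rose (1.86).

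In glycolysis and among hypoxia targets 11 of 39 rose and 9 fell (median -0.08; 5 and 7 with slide terms). Pklr, the liver pyruvate kinase that carbohydrate feeding induces, read 6.22, 6.12, 5.90 and 6.41 in lean 70% livers, against 7.89, 8.57, 9.24 and 9.35 in lean sham livers (-2.60 ± 0.31, adjusted p = 2.2e-07). The glucose transporter Slc2a1 (1.62) and the oxygen sensor Egln3 (1.32) rose. Glycogen genes gave 6 rises and 9 falls in 24 measured (median -0.11; 2 and 6 with slide terms). Ppp1r3b, which brings protein phosphatase 1 to glycogen, read 9.15, 6.05, 6.45 and 6.77 in lean 70% livers, against 11.38, 11.62, 11.66 and 11.89 in lean sham livers (-4.54 ± 0.39, adjusted p = 1.9e-09). Array 1 of the lean 70% group lay between the other 3 and sham.

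Iron, haem and metal genes held some of the largest rises. Of 34 measured haem and iron genes 7 rose and 9 fell (median 0.11; 4 and 6 with slide terms). Haem oxygenase (Hmox1), which degrades haem, read 9.16, 9.55, 9.44 and 7.48 in lean 70% livers, against 5.20, 5.11, 5.19 and 4.66 in lean sham livers, 3 of which detected it (3.86 ± 0.36, adjusted p = 5.8e-09). Lean 70% array 4 was well below the other 3 but above every sham array. The metalloreductase Steap4 (3.37, detected on 3 sham arrays) and Slc39a14 (2.22), an importer of zinc and free iron, rose. The iron exporter ferroportin (Slc40a1) read 11.06, 10.40, 10.91 and 9.62 in lean 70% livers, against 11.98, 11.62, 12.24 and 12.12 in lean sham livers (-1.49 ± 0.24, adjusted p = 1.4e-05).

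Of 22 measured metallothionein and zinc transport genes 8 rose and 3 fell (median 0.14; 4 and 0 with slide terms). The large rises were in few members. Mt2, a small cysteine-rich protein that binds zinc and copper, read 10.95, 11.40, 11.46 and 11.30 in lean 70% livers, against 6.14, 5.13, 5.16 and 4.79 in lean sham livers, 3 of which detected it (5.97 ± 0.23, adjusted p = 9.4e-16). Its neighbour Mt1 read 14.81, 14.84, 14.71 and 15.14 in lean 70% livers, against 13.36, 11.53, 11.36 and 10.85 in lean sham livers (3.10 ± 0.32, adjusted p = 2.9e-08). Sham array 1 was the highest sham array for both. The upstream bases of both genes are shown because metal response elements, the sites of the zinc-sensing factor MTF1, are known there. The windows are chr8:94172368-94172617 for Mt2 and chr8:94178839-94179088 for Mt1, both on the plus strand, and capitals mark TGCACNC or TGCGCNC on either strand.
Mt2: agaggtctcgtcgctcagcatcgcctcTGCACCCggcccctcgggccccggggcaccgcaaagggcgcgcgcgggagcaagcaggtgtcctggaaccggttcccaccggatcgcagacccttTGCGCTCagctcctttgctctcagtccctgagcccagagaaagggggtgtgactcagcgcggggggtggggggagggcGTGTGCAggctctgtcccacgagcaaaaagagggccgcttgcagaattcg
Mt1: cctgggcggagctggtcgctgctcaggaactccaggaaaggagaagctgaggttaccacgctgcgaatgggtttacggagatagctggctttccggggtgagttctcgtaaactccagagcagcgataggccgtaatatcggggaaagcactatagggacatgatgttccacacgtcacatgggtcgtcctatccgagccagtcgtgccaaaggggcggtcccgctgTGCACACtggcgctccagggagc
The element, which is short, was found in 21.4% of all windows and in 11 of the 21 list members with one (52.4%). Of the 10 measured with it 3 rose and 2 fell, and of the 9 measured without it 2 rose and 1 fell.

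Genes of phospholipid and sphingolipid synthesis changed in both directions, with 12 of 44 rising and 10 falling (median 0.07; 9 and 5 with slide terms). Those shares were 27.3% and 22.7%, against 21.4% and 26.2% of all genes. The glycerol-3-phosphate acyltransferase Gpat3 (3.18, detected on 3 sham arrays) and the sphingomyelin synthase Sgms1 (2.57) rose, and Gpam (-1.32), the mitochondrial enzyme of the same first acylation step, and Agpat2 (-1.06) fell. In peroxisome biogenesis 3 of 18 rose and 10 fell (median -0.39, 55.6% fallen; 0 and 7 with slide terms). Pex26 (-1.56), Pex11g (-1.12) and Pex2 (-0.76) fell. Of 21 measured targets of the antioxidant regulator NRF2 8 rose and 1 fell (median 0.19; 3 and 1 with slide terms), among them the peroxiredoxin repair enzyme Srxn1 (3.20) and the thioredoxin reductase Txnrd1 (1.81).

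Regulators of hepatocyte identity changed in both directions. Of 32 measured nuclear receptors and partners 8 rose and 11 fell (median -0.22; 4 and 8 with slide terms). The bile acid receptor FXR (Nr1h4) read 10.37, 9.55, 9.76 and 9.34 in lean 70% livers, against 11.42, 11.60, 11.75 and 11.97 in lean sham livers (-1.93 ± 0.20, adjusted p = 3.7e-08). The oxysterol receptor Nr1h3 (-1.31) and the xenobiotic receptor CAR (Nr1i3, -1.26) fell. Of 21 measured hepatocyte transcription factors 7 rose and 11 fell (median -0.28, or -0.04 with bounded genes at their bound; 6 and 8 with slide terms). Their shares were 33.3% risen and 52.4% fallen. Mlxipl, the carbohydrate response factor, read 9.41, 8.81, 8.76 and 9.23 in lean 70% livers, against 10.52, 10.61, 10.77 and 10.49 in lean sham livers (-1.54 ± 0.17, adjusted p = 4.8e-08). Cebpa, which restrains proliferation of hepatocytes, fell (-1.50), and Foxa2 fell (-1.44, 2 lean 70% arrays detecting it). In the other direction Gata6 rose, at 9.02, 9.25, 9.13 and 8.93 in lean 70% livers, against 7.95, 7.46, 7.96 and 7.52 in lean sham livers (1.36 ± 0.13, adjusted p = 1.0e-08). Cebpb (1.09), a factor of the acute response, and Hnf4a (0.93), a master regulator of the hepatocyte, rose with it.

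Genes of the central zone of the lobule fell or did not pass. Of 20 measured pericentral genes 0 rose and 11 fell (median -0.33, or -0.22 with bounded genes at their bound; 0 and 7 with slide terms), against 6 rises and 5 falls in 22 periportal genes (median 0.01; 4 and 2 with slide terms). The Wnt-dependent transcription factors Tbx3 (-1.94) and Sp5 (-2.12, detected on 1 lean 70% array) fell. In the periportal list Pck1 (1.58) and Tat (1.53) rose, and the glucose-6-phosphatase G6pc (-1.45†) and Cyp2f2 (-0.54) fell. The difference between the zones was not tested.

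Clock genes gave 6 rises and 4 falls in 17 measured (median 0.01; 4 and 4 with slide terms). Usp2, a deubiquitinase under clock control, read 7.93, 6.63, 6.72 and 7.67 in lean 70% livers, against 9.96, 10.03, 9.90 and 9.91 in lean sham livers (-2.71 ± 0.26, adjusted p = 9.4e-09). Per2 (-1.16) and Tef (-0.95) fell. The kinases that mark PER proteins for degradation rose, Csnk1d by 1.34 and Csnk1e by 1.22. The labels give the time after surgery and no hour of the day.

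Genes of coagulation, complement and plasma carriers rose more often than they fell. In coagulation and fibrinolysis 11 of 32 rose and 6 fell (median -0.04; 7 and 4 with slide terms). Thrombomodulin (Thbd), which turns thrombin into an activator of protein C, read 9.95, 10.36, 9.95 and 9.92 in lean 70% livers, against 6.02, 6.17, 5.94 and 5.75 in lean sham livers (4.07 ± 0.13, adjusted p = 4.7e-17). It varied little in either group. The fibrinogen chain Fgb rose (2.25) and prekallikrein (Klkb1) fell (-1.13). Of 26 measured complement genes 8 rose and 2 fell (median 0.14; 2 and 1 with slide terms), with Masp1 (0.73) among the rises and the inhibitor Cd59a (-1.09) among the falls. Plasma carriers and protease inhibitors had 11 rises and 3 falls in 27 (median 0.17; 6 and 1 with slide terms). The thyroxine carrier Serpina7 (2.46) and the acute phase inhibitor Serpina3n (1.87) rose, and the cortisol carrier Serpina6 fell (-1.32). For Alb (1.01†) the sign turned with slide terms, to -0.19.

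Apolipoproteins and assembly factors had 10 rises and 6 falls in 27 (median 0.13; 3 and 3 with slide terms), and hepatokines 9 rises and 4 falls in 25 (median 0.26; 5 and 3 with slide terms). The lipoprotein lipase inhibitor Angptl4, a fasting signal, rose (1.93). Angptl8, which insulin and feeding induce, read 8.44, 7.33, 6.97 and 7.07 in lean 70% livers, against 11.16, 11.29, 11.63 and 12.05 in lean sham livers (-4.08 ± 0.27, adjusted p = 2.1e-11). The sorting receptor Sort1 fell (-1.0).

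**Figure D4:**
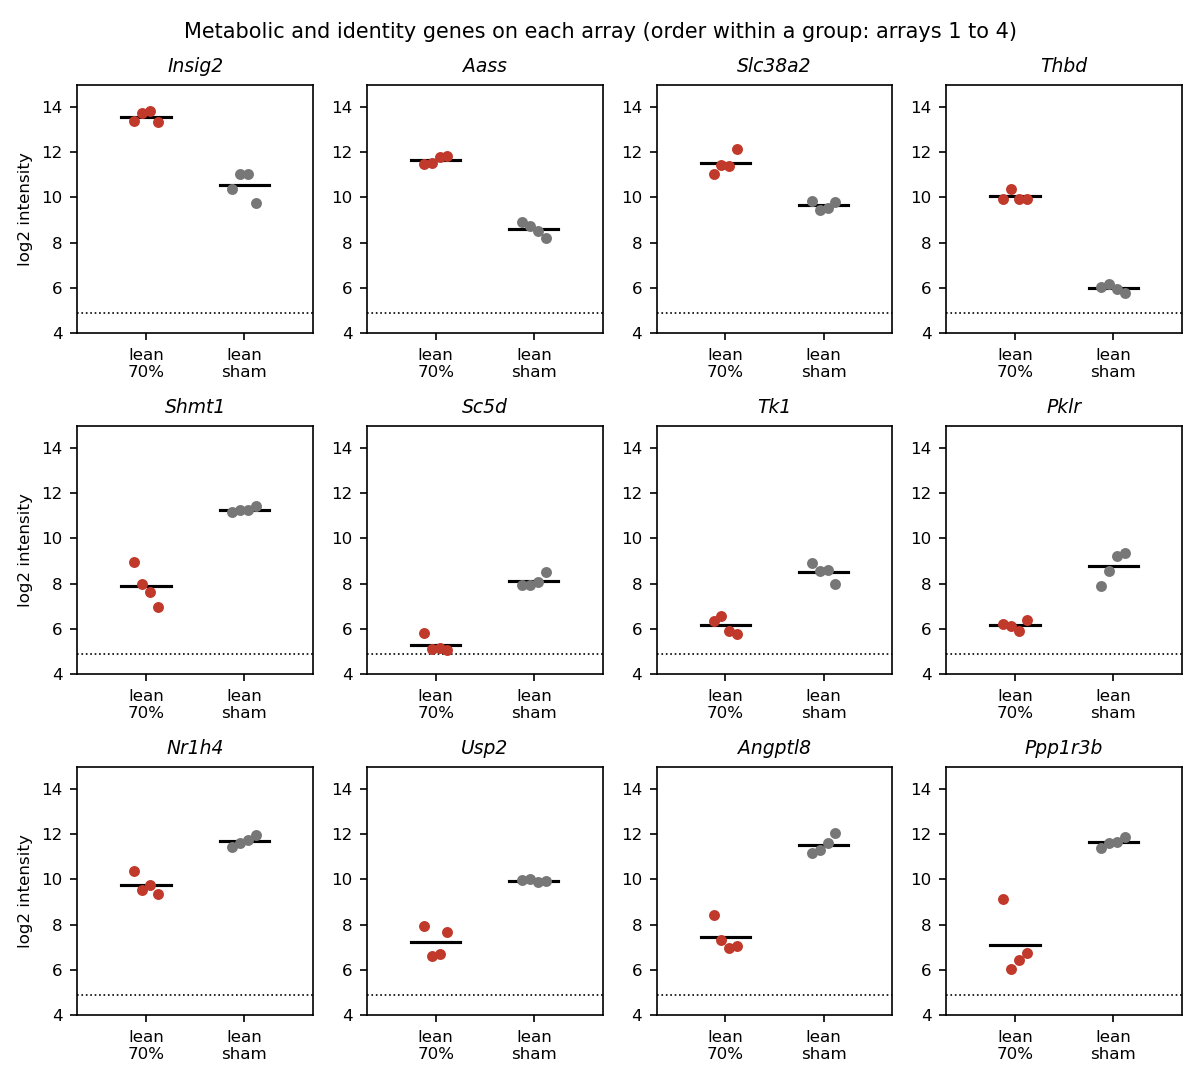
Normalised log2 intensity on each array for 12 genes of metabolism and liver identity, lean 70% livers to the left (red) and lean sham livers to the right (grey), with a bar at each group mean and a dotted line at the mean detection floor of the 8 arrays. Insig2, Aass, Slc38a2 and Thbd are higher in every lean 70% array, and Shmt1, Sc5d, Tk1, Pklr, Nr1h4, Usp2, Angptl8 and Ppp1r3b are lower, with lean 70% array 1 the highest of its group for Shmt1, Sc5d, Nr1h4, Usp2, Angptl8 and Ppp1r3b.

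Genes of cell division moved in both directions. Of 44 measured cyclins, CDKs, their inhibitors and partners 10 rose and 11 fell (median -0.02; 4 and 4 with slide terms). Mycl read 6.04, 5.26, 6.02 and 4.75 in lean 70% livers, 3 of which detected it, against 7.39, 7.50, 7.54 and 7.36 in lean sham livers (-1.93 ± 0.18, adjusted p = 8.0e-09). Cyclin L1 (Ccnl1, 2.99), which works in splicing, rose more than the G1 cyclin Ccnd1 (1.31†). Only 18 of 36 listed mitosis genes were measured, 5 of which rose and 1 fell (3 and 1 with slide terms). The polo-like kinase Plk3, a stress kinase, rose (2.23), and Top2a rose by at least 1.59-fold (adjusted p = 6.6e-10) from no detection in sham.

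In DNA repair 9 of 36 rose and 12 fell (median 0.03; 4 and 4 with slide terms). The stress sensors Gadd45g (1.91) and Gadd45b (at least 2.95-fold, adjusted p = 3.1e-05) rose, and the single-strand break proteins Parp1 (-1.24) and Xrcc1 (-1.26, detected on 2 lean 70% arrays) fell. Apoptosis and survival genes had 12 rises and 14 falls in 44 (median 0.06; 6 and 4 with slide terms). The TWEAK receptor Tnfrsf12a, a growth and injury signal of progenitor cells, read 11.03, 10.85, 10.93 and 10.34 in lean 70% livers, against 6.41, 6.22, 6.79 and 6.28 in lean sham livers (4.36 ± 0.18, adjusted p = 3.2e-15). The survival protein Bcl2l1 (2.21) and the caspase activator Apaf1 (1.29) rose, and the death promoters Bid (-1.09) and Bik (-1.07) fell. Histone and DNA methylation enzymes had 9 rises and 17 falls in 51 (median -0.15; 3 and 8 with slide terms). That list also holds histone deacetylases. Of these, Hdac11 read 5.03, 4.35, 4.85 and 5.23 in lean 70% livers, of which 2 detected it, against 7.24, 7.07, 6.65 and 7.10 in lean sham livers (-2.15 ± 0.18, adjusted p = 1.0e-09). The deacetylase Hdac5 (-1.73) fell, and the demethylase Kdm7a (2.19) rose.

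Markers of other cell types moved beside these lists. Of 17 listed neutrophil markers 16 had a probe and only 9 were measured. Of these, 8 rose and 0 fell (median 1.93; 5 and 0 with slide terms). Their mean level was 7.25 to 8.48 in lean 70% livers and 5.12 to 6.24 in lean sham livers. A marker silent in sham could be measured through the arrays where it was high, which by itself favours rises, so the counts are a description. The calprotectin gene S100a8 read 9.73, 11.07, 10.78 and 9.32 in lean 70% livers, against 6.55, 5.28, 5.72 and 5.69 in lean sham livers (4.41 ± 0.36, adjusted p = 7.0e-10). Csf3r, a receptor that neutrophils carry, rose far less (0.38†, detected on 3 sham arrays), and Lcn2 (4.93) is also made by hepatocytes. The part of neutrophils in the rise of the stress and inflammation lists was not tested.

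Stellate cell and fibroblast markers had 17 rises and 0 falls in 21 measured (median 0.68; 9 and 0 with slide terms), with a mean level of 7.26 to 7.78 in lean 70% livers and 6.47 to 6.66 in lean sham livers. They share Acta2 with the SRF list. Timp1, an inhibitor of matrix proteases, rose by at least 6.44-fold (adjusted p = 1.2e-11), Pdgfra by 1.35 and Des by 1.13 on the log2 scale. Reln, another stellate marker, gave 0.08 ± 0.11 (adjusted p = 0.59), and Lrat was detected on none of the 8 arrays. How far such cells account for the rise of the actin and SRF list was not tested.

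Sinusoidal endothelial markers had 10 rises and 4 falls in 26 (median 0.20; 6 and 0 with slide terms). The hyaluronan receptor Lyve1 read 9.03, 9.98, 9.33 and 8.81 in lean 70% livers, against 6.89, 6.98, 6.73 and 6.34 in lean sham livers (2.55 ± 0.20, adjusted p = 2.6e-10). Vcam1 (1.51), an adhesion molecule for leukocytes, and Stab1 (0.76) rose, whereas Stab2 (0.22 ± 0.14, adjusted p = 0.19) and Clec4g (-0.10 ± 0.15, adjusted p = 0.58) did not pass. Kupffer cell and monocyte markers had 5 rises and 3 falls in 17 (median 0.36; 2 and 3 with slide terms). Marco rose (1.75), while Clec4f (0.18 ± 0.19, adjusted p = 0.45) and Vsig4 (-0.09 ± 0.30, adjusted p = 0.83) did not pass. Clec4f was called higher with the mean of its detected probes (0.51, adjusted p = 0.00985) and without lean 70% array 4 (0.43, adjusted p = 0.0264). Slc40a1 (-1.49) and Nr1h3 (-1.31), also on this list, fell. The mean level of the list ranged more among lean 70% livers, 7.39 to 8.52, than among lean sham livers, 7.74 to 8.14.

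The remaining marker lists had 10 or fewer measured members. Lymphocyte and NK cell markers had 1 rise and 1 fall in 10, with mean levels of 6.03 to 6.26 in lean 70% livers and 6.01 to 6.33 in lean sham livers. Cholangiocyte markers had 3 rises and 0 falls in 8 (median 0.31; 2 and 0 with slide terms), among them Tm4sf4 (1.96) and Sox9, with mean levels of 7.45 to 7.72 in lean 70% livers and 6.88 to 7.02 in lean sham livers, while Krt19 and Epcam were detected on none of the 8 arrays. Erythroid markers had 2 and 2 in 8, and adipose, pancreas and gut markers 1 and 2 in 5 (median -0.48; 1 and 0 with slide terms). Adipoq, Ctrb1 and Fabp2 were detected on none of the 8 arrays. Cela1†, a further marker of that list, was detected on all 8 and was among the falls. Its mean was 8.87 in lean 70% livers and 9.72 in lean sham livers.

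Among called genes, those of inflammatory signalling rose more often than they fell, and interferon-induced genes fell more often than they rose. Of 39 measured genes of Toll-like receptor and interleukin-1 signalling 17 rose and 5 fell (median 0.32; 14 and 0 with slide terms). Cd14, the co-receptor of endotoxin, read 10.79, 11.20, 11.005 and 10.80 in lean 70% livers, against 5.45, 5.53, 5.57 and 4.77 in lean sham livers, 3 of which detected it (5.62 ± 0.20, adjusted p = 2.9e-16). The interleukin-1 antagonist Il1rn (2.25, detected on 2 sham arrays) and the NF-kB inhibitor Nfkbib (2.00) rose. Of 37 measured interferon-induced genes 5 rose and 17 fell (median -0.25, 45.9% fallen; 2 and 11 with slide terms). The immunity-related GTPase Irgm2 read 7.57, 7.17, 7.35 and 7.37 in lean 70% livers, against 9.35, 8.88, 9.12 and 9.51 in lean sham livers (-1.85 ± 0.15, adjusted p = 5.2e-10). Igtp, another GTPase of the family (-1.72), and the repressor Irf2 (-1.41) fell, and Trim25 rose (0.76). Their upstream bases, Igtp at chr11:58199306-58199555 and Irgm2 at chr11:58214727-58214976 on the plus strand, are shown because both fell and both hold the core of the interferon-stimulated response element, GAAA followed by any 2 bases and GAAA on either strand, in capitals.
Igtp: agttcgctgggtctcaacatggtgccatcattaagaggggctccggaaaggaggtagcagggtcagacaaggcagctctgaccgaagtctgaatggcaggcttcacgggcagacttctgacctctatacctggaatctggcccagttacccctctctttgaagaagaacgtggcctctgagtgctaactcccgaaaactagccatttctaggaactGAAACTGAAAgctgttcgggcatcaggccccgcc
Irgm2: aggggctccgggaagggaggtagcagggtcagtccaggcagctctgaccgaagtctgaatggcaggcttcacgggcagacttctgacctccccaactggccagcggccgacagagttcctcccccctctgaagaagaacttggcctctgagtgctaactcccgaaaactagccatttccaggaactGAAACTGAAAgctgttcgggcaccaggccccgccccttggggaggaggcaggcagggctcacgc
The core was found in 2.98% of all windows and in 17 of the 34 list members with one (50%). Of the 14 measured with it 2 rose and 8 fell, and of the 15 measured without it 3 rose and 7 fell. Igtp and Irgm2 are close relatives, and whether their probes share signal was not tested.

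Antigen presentation genes gave 8 rises and 5 falls in 23 (median 0.09; 2 and 3 with slide terms). The immunoproteasome subunit Psmb9 (-1.26) and Tapbpl (-0.99), which edits bound peptides, fell, and the MHC activator Nlrc5 (0.80) rose. Adhesion and junction proteins gave 9 and 9 in 33 (median -0.01; 6 and 7 with slide terms). Claudins, the proteins of tight junctions, differed among themselves. Cldn14 read 7.44, 8.0, 7.82 and 8.38 in lean 70% livers, against 5.54, 5.41, 5.46 and 5.59 in lean sham livers (2.41 ± 0.16, adjusted p = 3.4e-11). Cldn5, the endothelial claudin, read 5.05, 4.69, 4.96 and 5.80 in lean 70% livers, 3 of which detected it, against 7.04, 7.10, 6.94 and 7.01 in lean sham livers (-1.90 ± 0.23, adjusted p = 2.9e-07). Cldn3 (-1.59) fell and the gap junction protein Gja1 rose (1.21).

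Ranks 11 to 30 among all rises and falls held genes outside the lists. The actin-binding Enc1 read 9.11, 9.67, 9.70 and 10.15 in lean 70% livers, against 4.65, 4.67, 4.93 and 5.03 in lean sham livers, of which 2 detected it (4.84 ± 0.16, adjusted p = 6.1e-17). The beta-tubulin Tubb6 (4.83), the mitochondrial carrier Slc25a30 (4.27), the protease inhibitor Slpi (4.00) and the transcription factor Olig1 (3.82), best known from oligodendrocytes, rose. So did Ttyh1 (at least 18.1-fold, adjusted p = 8.5e-08), a channel-like membrane protein, the acyl-CoA thioesterase Acot5 (at least 10.6-fold, adjusted p = 1.7e-07) and Ch25h (at least 9.88-fold, adjusted p = 9.9e-12), which makes an antiviral oxysterol. Among the falls, Hes6, a relative of the Notch effectors, read 8.22, 7.83, 7.93 and 7.18 in lean 70% livers, against 11.16, 11.03, 11.13 and 11.42 in lean sham livers (-3.40 ± 0.18, adjusted p = 3.9e-13). The succinate receptor Sucnr1 (-3.61), the replication factor Mcm10 (-3.06), the ketone-using synthetase Aacs (-2.97) and the lipogenic regulator Thrsp (-2.83) fell.

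The 4 lean 70% arrays differed in their distance from sham. Among the 537 genes that fell at least 2-fold, array 1 was the lean 70% array nearest to the sham mean in 343 (63.9%), against 44, 59 and 91 for arrays 2, 3 and 4. Its median distance from sham there was -1.12, against -1.45, -1.34 and -1.46 on the others. Among the 616 genes that rose at least 2-fold, array 1 was nearest in 256 (41.6%) and array 4 in 222 (36%), with median distances of 1.43 on array 1, 1.67 on array 2, 1.62 on array 3 and 1.55 on array 4. In 14 of the falling genes array 1 stood over 1 log2 unit above the other 3, as for Ppp1r3b, Ppp1r3c (9.87 on array 1, 5.93 to 6.63 on the others) and Keg1 (10.76 on array 1, 8.83 to 9.08 on the others). Without array 1 the count of called genes was 4949, against 5125 with it.

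**Figure D5:**
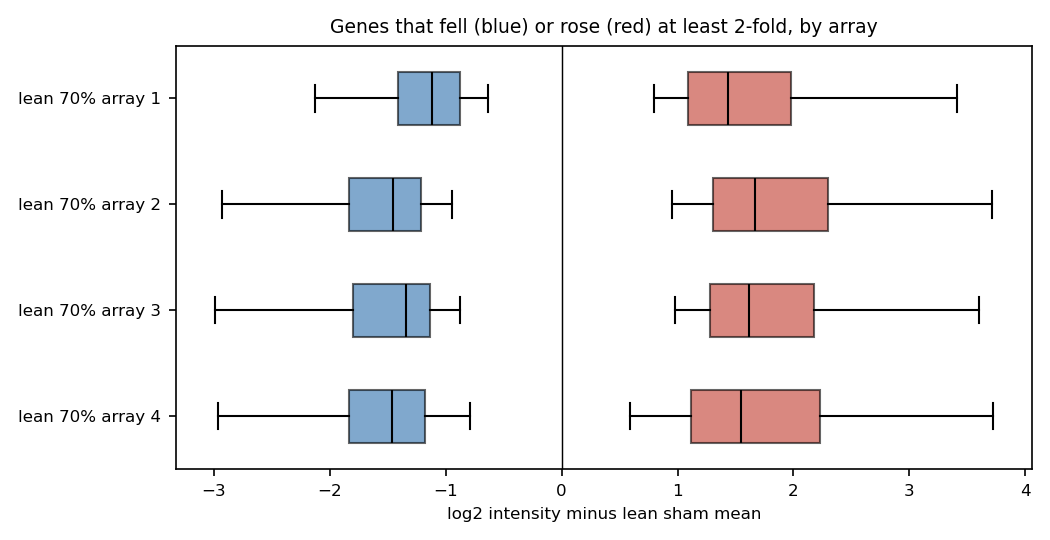
Distance of each lean 70% array from the lean sham mean (log2) for the 616 genes that rose at least 2-fold (right of 0, red) and the 537 that fell at least 2-fold (left of 0, blue), as boxes from the first to the third quartile with a line at the median and whiskers from the 5th to the 95th percentile. Array 1 lies nearest to 0 for the genes that fell, at a median of -1.12.

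The same resection was also made in obese mice. Of the 1153 genes that changed at least 2-fold in lean mice, 991 were called in the same direction in obese mice after 70% hepatectomy against obese sham, and 10 in the opposite direction. These 2 comparisons share no arrays. The difference between the effects, obese minus lean, was called for 1952 of 10763 genes (18.1%), or 853 with slide as a random block, and for 388 of the 1153, of which 352 changed less in obese mice and 36 more. Of the 388, 46 had the opposite sign in obese mice. Those 1153 genes were chosen for their size in lean mice, which by itself favours smaller changes in obese mice, so these counts are a description. For the other 765 no difference was called. The rise of Aass was smaller in obese mice by -1.87 ± 0.29 (adjusted p = 0.00016) and that of Ppargc1a by -1.97 ± 0.37 (adjusted p = 0.00081). The fall of Mvd was smaller by 1.80 ± 0.34 (adjusted p = 0.00091). The obese 70% arrays lay on slide 3, so slide enters that difference. Lean 80% against lean 70% hepatectomy was called for 1788 genes (16.6%), for 798 with slide as a random block, for 1131 without lean 70% array 3 and for 1171 without lean 80% array 2. It was called for 286 of the 1153, of which 179 lay farther from sham at 80%. The lean 80% arrays lay on slides 3 and 4 and the lean 70% arrays on slide 2, so slide and resection size cannot be told apart there.

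Of the 3123 detected probes that name no gene, 1205 were called (674 higher, 531 lower), 38.6% against 44.8% of the probes with a gene, and 213 of them changed at least 2-fold.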

How the data were processed

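Liver RNA was cleaned with DNase treatment and turned into biotinylated cRNA, per the labels' protocols, and hybridised to Illumina mouse BeadChips of 45281 probes. The authors deposited linear bead intensities that are not normalised, per the file headers; the scanner software is not given in the sources used here. Beside them the authors deposited a detection score per probe, called a detection p-value in the file headers. It rises with brightness and was therefore used as 1 minus the score. The authors' deposited log2 table differed by at most 0.00957 from quantile-normalised log2 intensities without background correction, centred on each probe's median, which settles its scale, centring and direction; its column medians lie between -0.00225 and 0.0025. It served as an alternative.

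The intensities were corrected with normexp from the detection p-values (limma 3.58.1, R 4.3.3), given an offset of 16, quantile-normalised and log2-transformed. Probes with a detection p under 0.05 on at least 4 of the 24 arrays were kept. Of all probes 34885 name 1 gene, 18 several and 10378 none in the platform annotation, which was updated through Entrez IDs and accessions. Each of the 10763 genes was represented by its probe with the highest mean. In 86 genes different probes were called in both directions, and no change is given for any of these. A mean for each of the 6 groups was fitted over 24 arrays with lmFit and eBayes (18 residual degrees of freedom), two-sided, with Benjamini-Hochberg adjustment. The script was tested on simulated data. Slides were read from the array names in the file headers. Fold bounds set the mean of the detected group against the higher of the lowest detected signal and the gene's own value on each array of the other group. No 2 arrays share identical values.

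Groups follow the titles. The lists and the genes shown were chosen with earlier results of these data known. The naming rule took up to 3 rises and 3 falls per list among called genes without overlap between groups, plus ranks 11 to 30 of all rises and falls; defining cell markers, Vcl, Myl9, genes named as not passing and the examples for array 1 were added after values were seen. Promoter windows came from RefSeq (GRCm38.p6). Alternatives changed the arrays fitted, background correction, offset, normalisation, filter, probe summary, slide, replicate block, prior variance and each array left out. Figures were drawn with matplotlib 3.10.9.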

Additional observations from a re-analysis of the deposited data

Results flagged for a closer look

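Within a group of 4 arrays, 1 array stood apart from the other 3 by Dixon's ratio in 8 of the 100 groups looked at (50 genes, both groups); chance gives about 1 in 20. In lean 70% livers the highest array stood apart for Atf3 (8.06), Eif1a (10.71), Sc5d (5.82), Slc10a1 (5.56) and Thbd (10.36). In lean sham livers the highest array stood apart for Fst (5.67) and the lowest for Cd14 (4.77) and Hmox1 (4.66). These are normalised log2 intensities, and none of the 8 arrays closed the gap between the groups.

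For 19 of the 50 genes the effect of 70% hepatectomy differed between obese and lean mice (limma contrast, obese minus lean on the log2 scale, adjusted p over all genes). Over all genes that difference was called for 18.1%. The 50 genes were shown for their large changes in lean mice. That choice by itself favours a called difference and a smaller change in obese mice, so these values are a description. The rise was smaller in obese mice for Hmox1 (-2.17, adjusted p = 0.0049), Cd14 (-2.004, adjusted p = 5.9e-05), Aass (-1.87, adjusted p = 0.00016), Insig2 (-1.84, adjusted p = 0.00064), Btg3 (-1.83, adjusted p = 4.3e-05) and Enc1 (-1.66, adjusted p = 3.8e-05). It was also smaller for Fst (-1.35, adjusted p = 0.013) and Gata6 (-0.70, adjusted p = 0.011). The rise of Cldn14 (1.13, adjusted p = 0.0018) and Eif1a (0.82, adjusted p = 0.00075) was larger in obese mice. The fall was smaller in obese mice for Cyp2a5 (1.60, adjusted p = 0.0029), Hes6 (1.27, adjusted p = 0.0013), Pklr (1.27, adjusted p = 0.044), Inhba (1.13, adjusted p = 0.04) and Irgm2 (1.08, adjusted p = 0.0011). The same held for Afmid (1.07, adjusted p = 0.011), Pdk2 (1.03, adjusted p = 0.0029) and Polr3k (0.82, adjusted p = 0.0049). The fall of Igfals was larger (-1.02, adjusted p = 0.0069). The obese 70% arrays shared slide 3 with 2 lean 80% arrays, whereas lean 70%, obese sham and lean sham arrays lay on slides 1 and 2; with slide as a random block 853 genes in all, in place of 1952, were called for this difference.

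Of the detected probes without a gene name, which are outside the gene counts, 213 were called with at least a 2-fold change.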

How the results depend on the processing

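The slide was the choice with the widest effect. With slide as a fixed term, 1167 genes were called higher, against 2308 without it, and 1328 lower, against 2817, while Alb (-0.19) and Ttr (0.081) turned their sign. With slide as a random block the called total was 4233, the obese-minus-lean difference was called for 853 genes in place of 1952, and lean 80% against lean 70% for 798 in place of 1788. The number of genes with at least a 2-fold change, 1153, was 669 without background correction, 736 with an offset of 50 and 671 with the authors' deposited log2 values; a smaller offset or a background subtraction stretches the fold of dim genes by construction. Leaving out each array in turn gave 2088 to 2274 genes called higher, 2589 to 2712 called lower and 1112 to 1255 with at least a 2-fold change. It gave 1440 to 2172 for the obese-minus-lean difference and 1131 to 2406 for lean 80% against lean 70%, with 1131 without lean 70% array 3 and 1171 without lean 80% array 2. The cause was not tested. Under the other alternatives the called total lay between 4636 (the 8 arrays alone) and 5153 (deposited values). The replicate numbers did not pair the arrays: same-numbered lean 70% and lean sham arrays deviated together at r = 0.040, 0.013, 0.085 and 0.183, and not every array correlated best with its own number. With the replicate block 2301 genes were called higher and 2808 lower. Alternatives were followed for 225 named genes, Cela1 not among them, of which 219 passed the main test. Of these, 12 lost their call with slide as a fixed term, Alb and Ttr among them, and 3 with slide as a random block. Under the alternatives other than slide and left-out arrays 4 lost it in at least 1: Csf3r (adjusted p = 0.0568 without background correction), Serpinc1 (0.0869 with the mean of probes), Cps1 (0.05) and Ttr (0.0622), the last pair with upper-quartile scaling. Cps1, Csf3r and Ttr, 3 genes, also lost it when 1 array was left out. Apob and Clec4f, which did not pass the main test, were called higher under some alternatives. Of 69 list medians 45 moved by more than the spread between arrays under at least 1 alternative. Precision is limited by 4 arrays a group, and dim genes by the background.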
